A study of Mus musculus with 4 samples.

Results

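Chaperone genes were examined in 4 single-colour arrays of cultured mouse cells. They were chosen by gene name alone: every probe set annotated to a single symbol that begins with Hsp and a digit or one of the letters a, b, c, d, e or h, with Dnaja, Dnajb or Dnajc, or with Cct2 to Cct8, or that equals Tcp1. The rule found 79 of 12422 tested probe sets, which stand for 56 of 8251 genes. The rule itself uses no measured value, though it was set with earlier results of these data known. A probe set is a group of probes read as 1 value, and a gene can have several. By title, 2 arrays are Hemangioblast and 2 are hCD4. The starting cells of both were mouse embryonic stem (ES) cells with a human CD4 reporter for Scl, the blood regulator encoded by Tal1, grown with LIF on inactivated STO fibroblasts and moved off this feeder before differentiation. Per the labels, differentiation with serum took 2.75 days, cells positive for Flk-1 and Scl were sorted from embryoid bodies as hemangioblasts, and blast colonies grown from replated embryoid body cells were picked and pooled. The sample sources call the groups cultured hemangioblasts and hCD4 ES cells, while the study text calls its populations hCD4 and Blast, so the labels leave unclear what the arrays of each title were made from. Both groups keep their titles here. No label gives strain, sex, passage or separate cultures for the replicates. The p-values thus rest only on how far these arrays of a group lie apart, for the probe set itself and for others of like brightness. That spread may be technical.

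Molecular chaperones help other proteins fold, keep them from clumping and hand damaged ones over for breakdown. Hsp70 proteins bind short greasy stretches of a client and release them in a cycle driven by ATP. DnaJ proteins (also called Hsp40) bring clients and start that cycle, and Hsp110 proteins reset it by exchanging nucleotide. Hsp90 finishes signalling proteins such as kinases and steroid receptors. Chaperonins are barrels that enclose a client: the CCT ring folds actin and tubulin in the cytosol, and Hsp60 with its lid Hsp10 works in mitochondria. Heat shock factor 1 raises many cytosolic chaperones under stress by binding heat shock elements, and the unfolded protein response raises those of the endoplasmic reticulum (ER). ES cells and early embryo cells are known for high basal levels of several of these genes.

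Promoter letters are shown for Hsph1 and Hspa1b, the genes whose probe sets passed the test. They are also shown for the gene pair of the mitochondrial chaperonin and for the main ER chaperone. The stress pathways are known to act through elements in promoters. Whether they do so at the letters marked here was not tested. RefSeq promoters (build GRCm38.p6) were matched for 48 of the 56 genes, and the 250 bases before each gene start were searched on both strands. Not matched, and so not searched, were Cct4, Dnajc2, Dnajc5, Dnajc11, Hsp90aa1, Hspa8, Hspa9 and Hspb2. Capitals mark a heat shock element, or in Hspa5 an ER stress element. In Hsph1 and Hspa1b this is only the short form of 2 units, and between Hspd1 and Hspe1 the form of 3 units (both described below). The Hsph1 stretch is chr5:149636337-149636586 (minus strand), that of Hspa1b is chr17:34959239-34959488 (minus strand), and that of Hspa5 is chr2:34771840-34772089 (plus strand). Hspd1 and Hspe1 lie head to head, and the 215 bases between their start sites are chr1:55087933-55088147 (given on the plus strand, the strand of Hspe1).
Hsph1: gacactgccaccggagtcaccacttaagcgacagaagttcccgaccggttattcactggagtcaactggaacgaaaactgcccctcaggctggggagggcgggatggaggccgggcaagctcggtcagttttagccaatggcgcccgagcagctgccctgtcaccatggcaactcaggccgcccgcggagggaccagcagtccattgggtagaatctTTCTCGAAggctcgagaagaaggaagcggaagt
Hspa1b: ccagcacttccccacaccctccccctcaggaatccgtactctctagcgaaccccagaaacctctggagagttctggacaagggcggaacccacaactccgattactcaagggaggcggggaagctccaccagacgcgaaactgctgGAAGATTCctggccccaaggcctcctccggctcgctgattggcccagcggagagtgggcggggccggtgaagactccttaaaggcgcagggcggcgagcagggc
Hspd1 and Hspe1: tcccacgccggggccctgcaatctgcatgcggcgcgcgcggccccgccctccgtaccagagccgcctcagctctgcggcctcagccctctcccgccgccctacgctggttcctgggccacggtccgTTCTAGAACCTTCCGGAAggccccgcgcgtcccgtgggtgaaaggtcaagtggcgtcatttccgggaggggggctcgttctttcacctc
Hspa5: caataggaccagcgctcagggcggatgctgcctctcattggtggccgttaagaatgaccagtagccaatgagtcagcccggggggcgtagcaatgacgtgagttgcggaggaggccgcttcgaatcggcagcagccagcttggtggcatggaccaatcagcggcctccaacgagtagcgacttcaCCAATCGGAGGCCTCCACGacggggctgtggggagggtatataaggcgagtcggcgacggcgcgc

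A heat shock element of 3 units was found in 6.45% of 62 chaperone promoter windows and in 0.466% of 32851 windows of all genes. It is GAA and TTC in alternation, starting with either, with any 2 bases between neighbours. The 4 chaperone windows with it were those of Hspd1, Hspe1 and Dnajb6. The Hspd1 and Hspe1 windows hold the same stretch read from either side, and those of Dnajb6 overlap, so the 4 are not independent. Another Hspd1 start had 0 matches. The form of 2 units (1 GAA and 1 TTC in either order with the same spacing), which every form of 3 units contains, was found in 22.6% of chaperone windows, including those of Hsph1, Hspa1b and Hspa1a, and in 12.8% of all windows. The ER stress element (CCAAT, any 9 bases and CCACG, or the reverse complement, so that each match overlaps a CCAAT box) was found in 4.84% of chaperone windows, those of Hspa5, Hsp90b1 and Dnajc3, and in 0.113% of all windows. These matches describe the letters and show no binding.

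Trimmed mean intensities before scaling ran from 345 to 388 for Hemangioblast and from 334 to 389 for hCD4. The values below are intensities scaled to one trimmed mean, and changes are log2(scaled intensity + 16), Hemangioblast minus hCD4, from limma with Benjamini-Hochberg adjustment over all 12422 probe sets. Gapdh control probes gave 3' to 5' ratios, which rise as RNA degrades, of 1.33 and 1.03 for Hemangioblast and 1.13 and 1.03 for hCD4. Those of the actin control were 1.63 and 1.16 for Hemangioblast and 1.36 and 1.12 for hCD4, so Hemangioblast replicate 1 was highest by both. Their part in the results was not tested. Cell type markers differed between the groups. The summed intensity of 6 myeloid markers was 5085 and 5631 on the Hemangioblast arrays, against 249.6 and 224 on the hCD4 arrays, and 6 of 6 rose. Of 6 erythroid markers 5 rose (sums of 35997 and 38528 in Hemangioblast, against 11919.6 and 12770.1 in hCD4). Of 6 hemangioblast markers 3 fell and 0 rose (sums of 3019.7 and 3415 in Hemangioblast, against 5782 and 7045 in hCD4). Kdr, which encodes Flk-1, fell to 648 and 570.0 in Hemangioblast, against 1625 and 2003 in hCD4. Etv2, a regulator of that stage, fell to 19.0 and 36.4 in Hemangioblast, against 443 and 422 in hCD4. Tal1, which did not pass, was at 391 and 333 in Hemangioblast, against 597 and 696 in hCD4. Of 5 pluripotency markers 2 fell (sums of 639 and 535 in Hemangioblast, against 3735 and 1629 in hCD4). Among these Pou5f1 was at 104 and 144 on the Hemangioblast arrays, against 1526 and 585 on the hCD4 arrays, and Nanog, which did not pass, at 86.9 and 73.4 in Hemangioblast, against 444 and 141 in hCD4. Of 8 fibroblast markers of the STO feeder 1 rose, with sums of 1911 and 2379.8 in Hemangioblast, against 1951 and 1591 in hCD4. The titled Hemangioblast arrays thus carried less of the hemangioblast markers than the hCD4 arrays. The part of cell makeup in the changes below was not tested, and in such bulk samples fewer cells of a type cannot be told apart from less RNA per cell.

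Most chaperone genes did not differ past the threshold, and those that did were lower. Of the 79 probe sets, 2 fell (2.53%) and 0 rose, where 4.48% of all tested probe sets passed (1.56% lower, 2.91% higher; with no scaling 222 higher and 50 lower of all, and 0 of the 79). The 2 were Hsph1, an Hsp110, and Hspa1b, a stress-inducible Hsp70. The median change of the 79 was -0.18, beside 0.04 over all tested probe sets. Of the 79 changes 52 lay below 0 (65.8%, against 45.6% of all tested). By the brightest probe set of each gene it was 37 of 56 genes. For 37 of the 79 (46.8%) every Hemangioblast array was lower than every hCD4 array, against 19.7% of all tested probe sets; the 37 include Dnajb5, which read about 1 on every array. The opposite order was seen for 10 (12.7%), against 24.8%. An unadjusted p under 0.05 with a lower value was found for 19 (24.1%), against 7.43%, and with a higher value for 1, against 8.90% of all tested. By the rule of a 2-fold difference in all 4 array pairs 0 of the 79 passed, where 2.89% of all did.

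**Figure D1:**
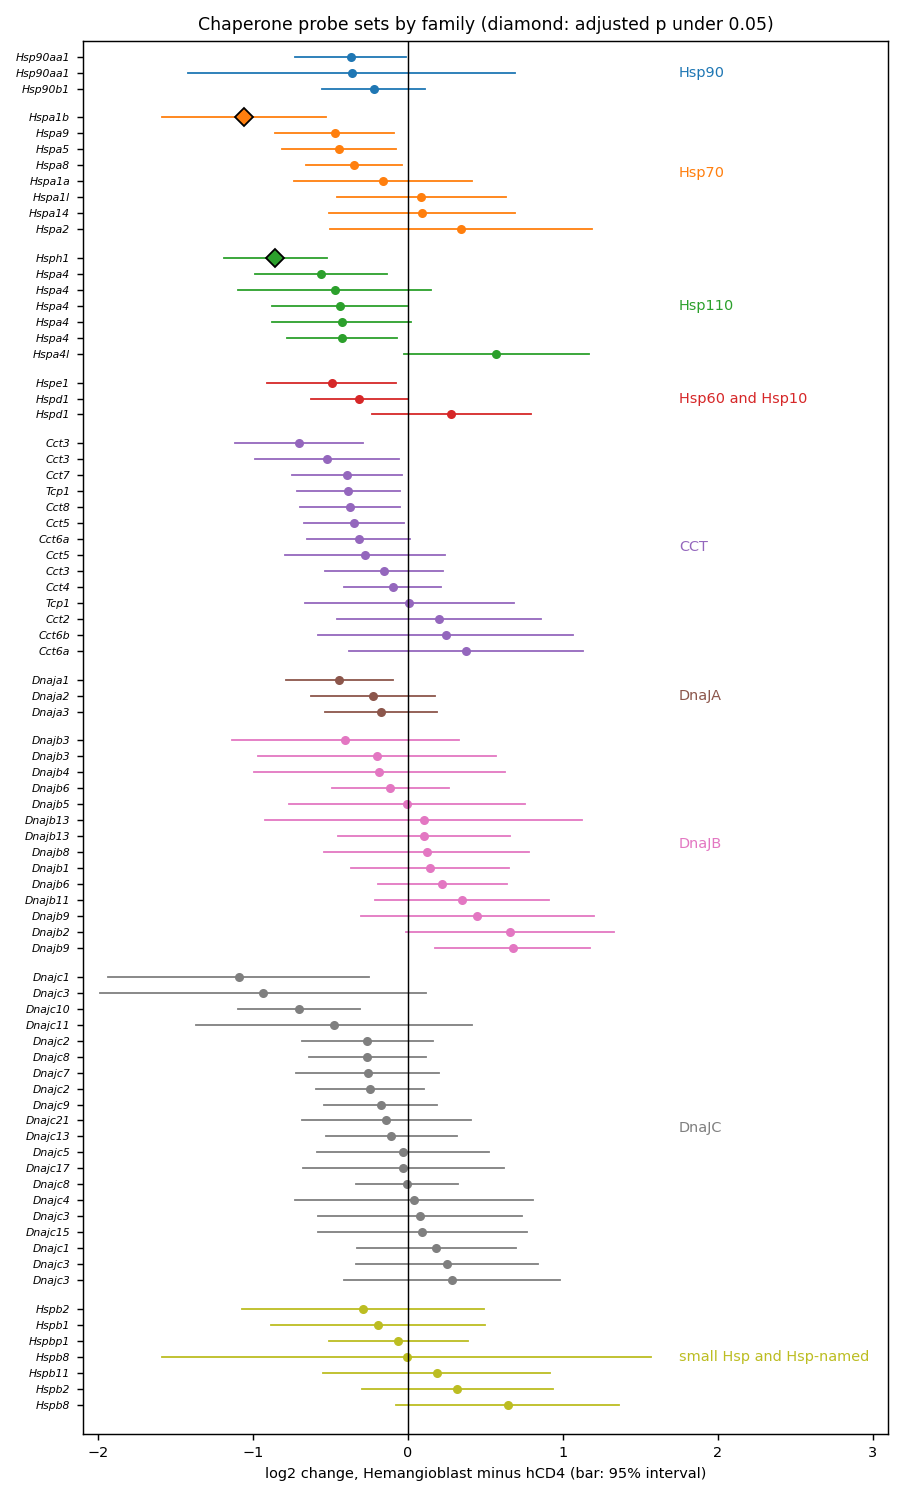
Log2 change (Hemangioblast minus hCD4) of each of the 79 chaperone probe sets, grouped by family, with its 95% interval as a bar. Diamonds mark the 2 probe sets past the adjusted threshold, Hspa1b at -1.06 and Hsph1 at -0.86; a gene with several probe sets has several rows.

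The share of changes below 0 differed between ranges of brightness, without a steady order. All 24 chaperone probe sets with a mean over 1000 had a change below 0, and for 20 of them (83.3%) the groups did not overlap, where 38.6% of all tested probe sets of that brightness were lower without overlap. Their median change was -0.37, beside -0.09 for the 1337 tested probe sets of that brightness, of which 63.7% lay below 0. With no scaling or with quantile normalization 23 of the 24 lay below 0. Among the 39 of intermediate brightness (100 to 1000) 18 changes lay below 0 and 21 above, with a median of 0.08, beside 0.02 over all probe sets in that range. The remaining 16 had a mean up to 100 and a median of -0.10, beside 0.14 over all such probe sets. Of these 16 changes 10 lay below 0 and 6 above (62.5% below, against 37.2% of all such probe sets). The limit of 1000 was chosen after the values were seen, and brightness of a probe set is no level that can be compared between genes. Of the 24, 1 passed the adjusted threshold, Hsph1 (4.17%, where 8.53% of all tested probe sets of that brightness passed). The 4 whose groups overlapped were 1 probe set each of Dnajb6, Dnajc2, Dnajc8 and Dnajc9. Leaving out Hemangioblast replicate 1, Hemangioblast replicate 2 or hCD4 replicate 2 left 23 of the 24 below 0.

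**Figure D2:**
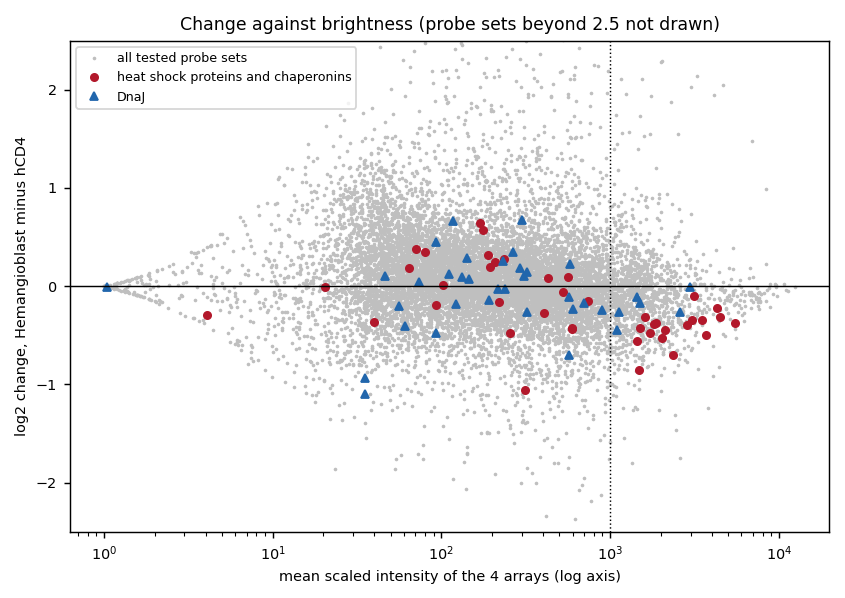
Log2 change (Hemangioblast minus hCD4) against mean scaled intensity of the 4 arrays on a log axis; grey points are all tested probe sets, red circles heat shock proteins and chaperonins, blue triangles DnaJ probe sets; tested probe sets with a change beyond 2.5 either way are not drawn. The 24 chaperone probe sets right of the dotted line at 1000 all lie below 0, with a median of -0.37.

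The clearest single change was in Hsph1, which encodes Hsp105, a heat-inducible exchange factor for cytosolic Hsp70. Its probe set read 1027 and 1057 on the Hemangioblast arrays, against 1797 and 2009.9 on the hCD4 arrays. The means were 1042 ± 20.9 in Hemangioblast and 1904 ± 150.4 in hCD4 (SD, n = 2 each), so the groups lay further apart than the arrays of a group. Hsph1 fell by 0.86 on the log2 scale (SE 0.145, 95% interval -1.19 to -0.52, limma adjusted p = 0.0146), 1.81-fold lower. In the 4 array pairs its change ran from -0.96 to -0.76. The call was lost when either hCD4 replicate was omitted (adjusted p = 0.0864 and 0.165), when arrays were not scaled (0.0753) and when the variance model ignored intensity (0.140), while the change stayed between -0.94 and -0.78 in all of these.

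No probe set of the other Hsp110 genes passed. Hspa4, the constitutive family member, has 5 probe sets, and all 5 had a change below 0, from -0.56 to -0.43, with groups that did not overlap. The brightest of them read 1227 and 1319 on the Hemangioblast arrays, against 1565 and 1877 on the hCD4 arrays (adjusted p = 0.206). These 5 share a transcript and are no independent replicates. The Hspa4 probe set with a change of -0.56 had -0.81 without Hemangioblast replicate 1 and -0.32 without Hemangioblast replicate 2. Hspa4l, a relative known from testis, had the opposite sign, at 226 and 204 on the Hemangioblast arrays, against 121 and 160.1 on the hCD4 arrays (change 0.57, 95% interval -0.03 to 1.17, adjusted p = 0.336).

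Among Hsp70 genes of the cytosol, Hspa1b and its neighbours were read by separate probe sets. Hspa1b, a stress-inducible Hsp70, read 224 and 173 on the Hemangioblast arrays, against 382 and 479 on the hCD4 arrays. No Hemangioblast array reached an hCD4 array, and the means were 199 ± 35.9 in Hemangioblast and 430.3 ± 68.7 in hCD4 (SD, n = 2 each). Hspa1b fell by 1.06 on the log2 scale (SE 0.230, 95% interval -1.59 to -0.53, limma adjusted p = 0.0410), 2.08-fold lower. Its adjusted p was 0.137, 0.112 and 0.289 without Hemangioblast replicate 2, hCD4 replicate 1 and hCD4 replicate 2. It was 0.0516 with median scaling, 0.0578 with quantile normalization, 0.106 unscaled and 0.131 with a variance model that ignores intensity, and in all of these the change ran from -1.22 to -0.89.

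Hspa1a encodes an almost identical protein, and its transcript is so close to that of Hspa1b that the probe sets may not tell them apart. Its own probe set read 192 and 221 on the Hemangioblast arrays, against 198 and 272 on the hCD4 arrays, so the groups overlapped (change -0.16, 95% interval -0.74 to 0.41, adjusted p = 0.846). Hspa1l, the testis-linked member of the same cluster, read 346 and 544 on the Hemangioblast arrays, against 389 and 429 on the hCD4 arrays (change 0.09, adjusted p = 0.931). The difference between Hspa1b and these neighbours was not tested, and which transcript the Hspa1b probe set reads was not tested.

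The constitutive Hsp70 of the cytosol, Hspa8, was lower in every pair but did not pass. It read 2637 and 2757 on the Hemangioblast arrays, against 3523 and 3353 on the hCD4 arrays (change -0.35, 95% interval -0.66 to -0.04, adjusted p = 0.240). Hspa14, an Hsp70 of the ribosome, read 729 and 444.8 on the Hemangioblast arrays, against 628 and 454.8 on the hCD4 arrays, with groups that overlapped (change 0.09). Hspa2, best known from spermatocytes, read 104 and 77.2 on the Hemangioblast arrays, against 92.3 and 48.0 on the hCD4 arrays, and these also overlapped (change 0.34).

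**Figure D3:**
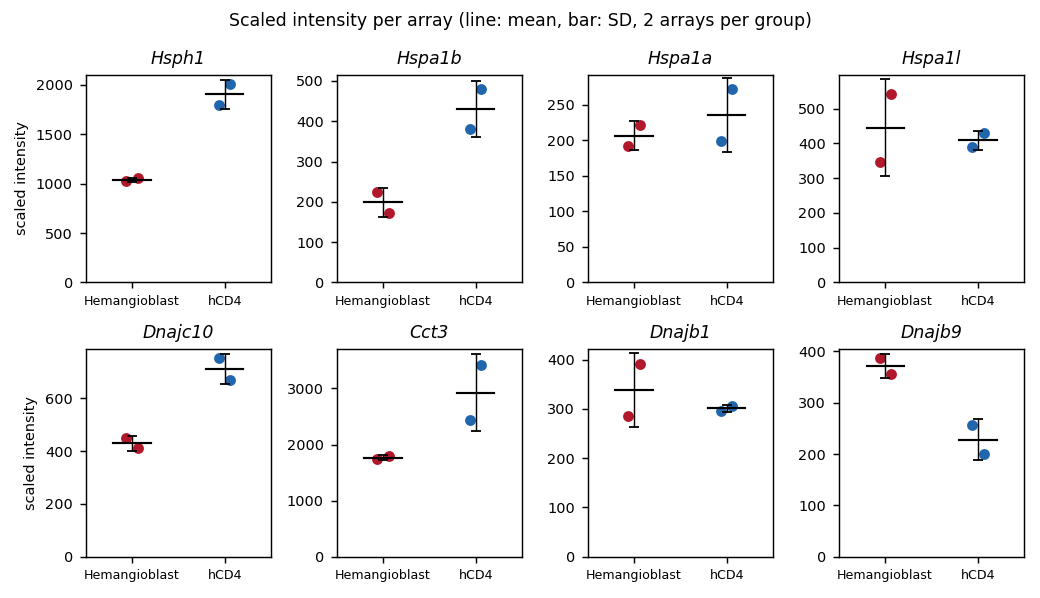
Scaled intensity of each array for 8 chaperone probe sets, Hemangioblast arrays left and hCD4 arrays right, with the group mean as a line and the SD as a bar (2 arrays each). Hsph1 and Hspa1b are lower on both Hemangioblast arrays and passed the threshold, while Hspa1a, Hspa1l and Dnajb1 overlap between the groups.

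Cytosolic Hsp90 was read through Hsp90aa1, its inducible form. The bright probe set gave 5349 and 4311 on the Hemangioblast arrays, against 6025 and 6406 on the hCD4 arrays. The groups did not overlap, and the Hemangioblast arrays differed from each other by 0.31 on the log2 scale (change -0.37, 95% interval -0.73 to -0.01, adjusted p = 0.285). A dim probe set of Hsp90aa1 overlapped, at 50.4 and 16.8 on the Hemangioblast arrays, against 29.8 and 62.7 on the hCD4 arrays. Hsp90ab1, the constitutive form, was not analysed here.

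The CCT ring was covered by 14 probe sets for 9 genes, and 0 passed the threshold. Its median change was -0.30, and 10 of the 14 lay below 0 (10 to 11 under the other scalings, and 10 to 13 with 1 array left out). Cct3, a ring subunit, had the largest change by a probe set that read 1740 and 1796 on the Hemangioblast arrays, against 2440 and 3412 on the hCD4 arrays (change -0.70, 95% interval -1.11 to -0.29, adjusted p = 0.0734). Another Cct3 probe set read 2027 and 1343 on the Hemangioblast arrays, against 2270 and 2493 on the hCD4 arrays (change -0.52, adjusted p = 0.236), and the dimmest read 769 and 641 on the Hemangioblast arrays, against 782 on each hCD4 array (change -0.15). The 3 Cct3 probe sets had the same sign and differing sizes. Between the Hemangioblast arrays (replicate 1 minus 2) the first differed by -0.05 on the log2 scale and the second by 0.59. Which transcripts each of these probe sets reads was not tested. The first of them passed when dim probe sets were dropped (adjusted p = 0.0210) and its change was -0.46 without hCD4 replicate 2. The change of the second was -0.82 without Hemangioblast replicate 1 and -0.23 without Hemangioblast replicate 2.

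The other ring subunits with a bright probe set had changes from -0.39 to -0.10, all below 0, and none passed. Tcp1, the founding subunit, read 1616 and 1532 on the Hemangioblast arrays, against 1930.3 and 2197 on the hCD4 arrays (change -0.38, adjusted p = 0.224). Cct7 read 2722 and 2217 on the Hemangioblast arrays, against 3087 and 3377 on the hCD4 arrays (change -0.39, adjusted p = 0.251). In each of these the groups did not overlap.

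Cct8 read 1629 on each Hemangioblast array, against 2015 and 2226 on the hCD4 arrays (change -0.38, adjusted p = 0.221). Cct5 read 3071 and 3115 on the Hemangioblast arrays, against 3697 and 4194 on the hCD4 arrays (change -0.35, adjusted p = 0.265), and Cct6a 1446 and 1416 on the Hemangioblast arrays, against 1899.7 and 1682 on the hCD4 arrays (change -0.32, adjusted p = 0.330). Cct4 was closest to level, at 3147 and 2959 on the Hemangioblast arrays, against 3369 and 3169 on the hCD4 arrays (change -0.10, 95% interval -0.41 to 0.21). The groups of all 4 did not overlap.

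The dimmer CCT probe sets gave no common sign. Cct2, a ring subunit read by this probe set alone, gave 185 and 228 on the Hemangioblast arrays, against 222 and 140.1 on the hCD4 arrays (change 0.20, adjusted p = 0.833). Cct6b, a testis-linked subunit, gave 195 and 247 on the Hemangioblast arrays, against 272 and 122 on the hCD4 arrays (change 0.24). Both overlapped. Second probe sets of the other genes included the largest positive change of the ring, Cct6a at 92.8 and 70.9 on the Hemangioblast arrays, against 66.3 and 52.3 on the hCD4 arrays (change 0.38, adjusted p = 0.681). That of Cct5 read 439 and 297.6 on the Hemangioblast arrays, against 454 and 429.8 on the hCD4 arrays (change -0.28), and that of Tcp1 97.8 and 105.9 on the Hemangioblast arrays, against 109 and 93.3 on the hCD4 arrays (change 0.01).

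**Figure D4:**
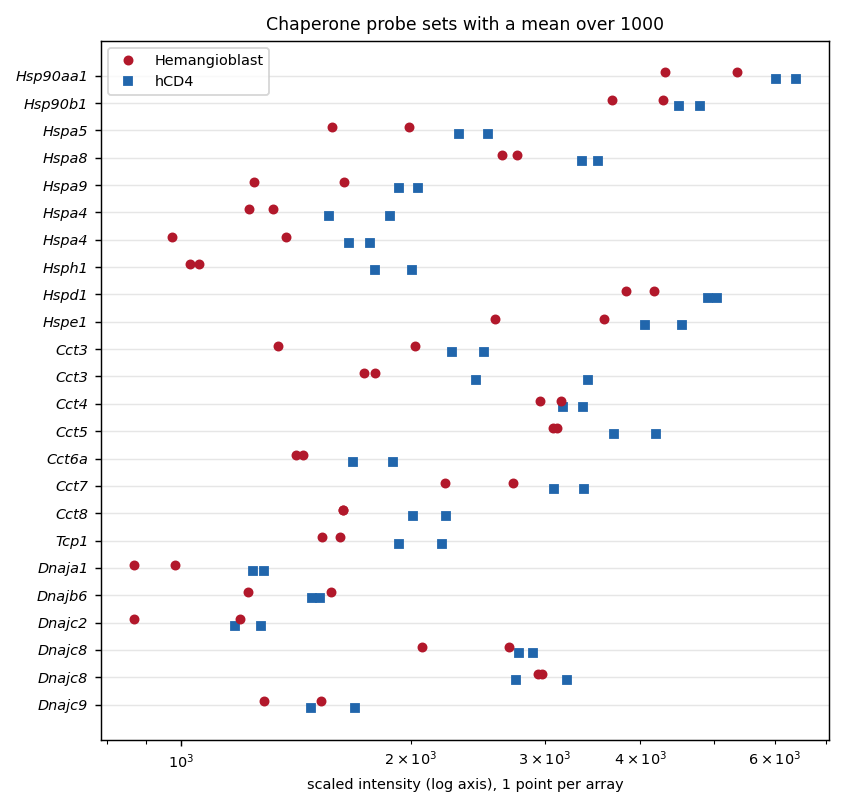
Scaled intensity on a log axis for the 24 chaperone probe sets with a mean over 1000; red circles are Hemangioblast arrays, drawn above the blue squares of the hCD4 arrays, 1 point per array. In 20 of the 24 rows both circles lie left of both squares, where 38.6% of all tested probe sets of that brightness were lower without overlap.

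The mitochondrial set held 7 probe sets of 6 genes, of which 0 passed the threshold and 5 lay below 0 (median change -0.31). Hspe1, the Hsp10 lid, read 3588 and 2579 on the Hemangioblast arrays, against 4052 and 4535 on the hCD4 arrays (change -0.49, 95% interval -0.91 to -0.08, adjusted p = 0.214). Its partner Hspd1, the Hsp60 barrel transcribed from the other side of the shared stretch printed above, read 3828 and 4173 on the Hemangioblast arrays, against 5045 and 4901 on the hCD4 arrays (change -0.31, 95% interval -0.63 to 0.0002, adjusted p = 0.306). In each gene the groups did not overlap, while Hspe1 differed more between the Hemangioblast arrays than Hspd1 did. The change of Hspe1 was -0.73 without Hemangioblast replicate 1 and -0.26 without Hemangioblast replicate 2.

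A dimmer second probe set of Hspd1 had the opposite sign (change 0.28, adjusted p = 0.645). It read 238 and 282 on the Hemangioblast arrays, against 212 and 209.8 on the hCD4 arrays, with no overlap. Hspa9, the mitochondrial Hsp70 that pulls proteins through the inner membrane, read 1635 and 1246 on the Hemangioblast arrays, against 1934 and 2045 on the hCD4 arrays (change -0.47, 95% interval -0.86 to -0.09, adjusted p = 0.194). Dnaja3, its DnaJ partner, read 639 and 669 on the Hemangioblast arrays, against 713 and 769 on the hCD4 arrays (change -0.18, adjusted p = 0.692). For Hspa9 and Dnaja3 the groups did not overlap. Dnajc11 (change -0.48) and Dnajc15 (0.09), both of mitochondrial membranes, overlapped.

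In the ER 12 probe sets covered 7 genes. Of these 0 passed the threshold, 5 changes lay below 0 and 7 above, and the median was 0.13, which turned to -0.10 without hCD4 replicate 2. That array was lower than hCD4 replicate 1 by a median of 0.25 over these 12 probe sets. Hspa5 (BiP), the ER Hsp70, read 1579 and 1988 on the Hemangioblast arrays, against 2524 and 2317 on the hCD4 arrays (change -0.44, 95% interval -0.81 to -0.08, adjusted p = 0.202). Hsp90b1 (Grp94), the ER Hsp90, read 4289 and 3678 on the Hemangioblast arrays, against 4490 and 4785 on the hCD4 arrays (change -0.22, adjusted p = 0.543). In neither did the groups overlap. These were the 2 ER probe sets with a mean over 1000, and their median change was -0.33.

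The DnaJ partners of BiP in the ER had changes of both signs. Dnajc10 (ERdj5), a disulfide reductase for proteins to be degraded, read 450.4 and 410.4 on the Hemangioblast arrays, against 752 and 670.2 on the hCD4 arrays (change -0.70, SE 0.171, 95% interval -1.10 to -0.31, adjusted p = 0.0618). It passed when 1 in place of 16 was added (adjusted p = 0.0478) or when dim probe sets were dropped (0.0363). Dnajb9 (ERdj4), a co-chaperone that BiP needs to hold back the stress sensor Ire1, read 388 and 355 on the Hemangioblast arrays, against 257 and 199 on the hCD4 arrays (change 0.68, 95% interval 0.17 to 1.18, adjusted p = 0.152). A dimmer second probe set of Dnajb9 had a change of 0.45. Dnajb9 was thus the largest positive change among all 79 probe sets, and it did not pass.

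Dnajb11 (ERdj3), which binds nascent chains with BiP, read 287 and 305 on the Hemangioblast arrays, against 276 and 189.6 on the hCD4 arrays (change 0.35, adjusted p = 0.576). Dnajc3, an inhibitor of the stress kinase PERK, has 4 probe sets with changes from -0.94 to 0.28, and the highest read 163.5 and 149.3 on the Hemangioblast arrays, against 159 and 98.7 on the hCD4 arrays, while the lowest was dim, at 32.9 and 7.18 on the Hemangioblast arrays, against 35.2 and 65.0 on the hCD4 arrays. Dnajc1, an ER membrane DnaJ, also had probe sets of both signs: its dim probe set read 13.5 and 19.4 on the Hemangioblast arrays, against 41.2 and 67.2 on the hCD4 arrays (change -1.09, adjusted p = 0.166) and its brighter one 278 and 345 on the Hemangioblast arrays, against 245 and 300.1 on the hCD4 arrays (change 0.18). Where intensities lie near 16, the added constant, the log2 change is set in part by that constant.

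DnaJ genes as a whole gave 0 of 37 probe sets past the threshold, with a median change of -0.03, beside -0.30 for the 42 other chaperone probe sets. The difference between these medians was not tested, and the probe sets behind them were not matched for brightness. Dnaja1, a main partner of cytosolic Hsp70, read 983 and 869 on the Hemangioblast arrays, against 1285 and 1243 on the hCD4 arrays (change -0.44, 95% interval -0.79 to -0.10, adjusted p = 0.171). Its relative Dnaja2 read 527 and 578 on the Hemangioblast arrays, against 595 and 709 on the hCD4 arrays (change -0.23, adjusted p = 0.623). Neither gene overlapped between the groups.

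Dnajb1 (Hsp40), the classical heat-inducible DnaJ, had groups that overlapped: it read 285 and 392 on the Hemangioblast arrays, against 296 and 306 on the hCD4 arrays (change 0.14, 95% interval -0.37 to 0.65, adjusted p = 0.846). Its change was -0.08 without Hemangioblast replicate 2. Dnajb2, which carries clients to the proteasome, read 140.2 and 153 on the Hemangioblast arrays, against 99.4 and 75.4 on the hCD4 arrays (change 0.66, 95% interval -0.01 to 1.33, adjusted p = 0.317). Over the 14 DnaJB probe sets 9 changes lay above 0 (7 with quantile normalization), and for 5 of the 14 (35.7%) every Hemangioblast array was higher, where 24.8% of all tested were.

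Dnajb6, a suppressor of protein aggregation, had changes of -0.11 and 0.22 by its probe sets. Dnajb5 was not measurable, with intensities of 0.939 and 1.05 in Hemangioblast and of 1.06 and 1.09 in hCD4 arrays. Dnajb3, Dnajb8 and Dnajb13, known from testis, and Dnajb4 had changes from -0.41 to 0.12, and none passed. The lowest was a Dnajb3 probe set at 48.7 and 51.0 on the Hemangioblast arrays, against 73.7 and 68.7 on the hCD4 arrays. Of the 79 chaperone probe sets, 12 were under 100 on every array.

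The DnaJC genes, a mixed family, gave 14 of 20 changes below 0 (13 to 16 under the other scalings). With 1 array left out it was 11 to 15, the lowest without Hemangioblast replicate 1. Dnajc2, which sits on the ribosome, had changes of -0.24 and -0.26 by its probe sets, and the brighter one read 1194 and 869 on the Hemangioblast arrays, against 1274 and 1178 on the hCD4 arrays. Dnajc8, a splicing-linked nuclear protein, had changes of -0.26 and -0.01. Dnajc9, a histone chaperone partner, read 1527 and 1284 on the Hemangioblast arrays, against 1481 and 1693 on the hCD4 arrays (change -0.18). The adjusted p-values of Dnajc2, Dnajc8 and Dnajc9 were 0.514 to 0.994. Dnajc7, a cytosolic partner of Hsp70 and Hsp90, had a change of -0.26 with groups that did not overlap, and the endosomal Dnajc13, the synaptic vesicle protein Dnajc5, Dnajc4, Dnajc17 and Dnajc21 had changes from -0.14 to 0.04.

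Small heat shock proteins, which hold unfolded proteins without ATP, gave 0 of 7 probe sets past the threshold when counted with Hspb11 and Hspbp1. Hspb1 (Hsp27 in human) read 94.8 and 77.4 on the Hemangioblast arrays, against 96.0 and 104.9 on the hCD4 arrays (change -0.19, 95% interval -0.89 to 0.50, adjusted p = 0.848). Hspb8, which works with Bag3, read 196 and 219 on the Hemangioblast arrays, against 170.4 and 93.7 on the hCD4 arrays (change 0.64, 95% interval -0.08 to 1.36, adjusted p = 0.379). Its other probe set was at 39.2 and 1.05 on the Hemangioblast arrays, against 0.936 and 40.2 on the hCD4 arrays and gave no usable value. Hspb2, known from heart and muscle, had changes of -0.29 and 0.32 by its probe sets, the first of which read only 0.832 and 3.25 on the Hemangioblast arrays, against 4.98 and 7.16 on the hCD4 arrays. Hspb11, a ciliary transport protein despite its name, had a change of 0.19, and Hspbp1, an exchange factor for Hsp70, one of -0.06.

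Other genes of protein folding were taken from 7 lists, each gene by its brightest probe set. Of 121 listed genes 94 were measured, and 6 fell and 0 rose (6.38%, where 5.38% of all 8251 genes passed, 1.95% lower). Of 12 measured Hsp90 co-chaperones 2 fell: Ppid, a cyclophilin bound to Hsp90, read 779 and 633 on the Hemangioblast arrays, against 1367 and 1154 on the hCD4 arrays (change -0.82, adjusted p = 0.0371). Ppp5c, a phosphatase bound to Hsp90, read 159.9 and 151 on the Hemangioblast arrays, against 326 and 320.4 on the hCD4 arrays (change -0.98, adjusted p = 0.0463). The median change of the Hsp90 co-chaperones was -0.32.

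Of 13 measured genes for prefoldin and tubulin folding 1 fell, Pfdn2, a subunit of the complex that hands actin and tubulin to CCT. It read 747 and 749 on the Hemangioblast arrays, against 1204 and 1189.8 on the hCD4 arrays (change -0.67, adjusted p = 0.0428). The median change of these 13 genes was 0.08, with changes from -0.67 to 1.51. Of 21 measured ER folding enzymes 3 fell, and the median change of the 21 was -0.13. Serpinh1 (Hsp47), the collagen chaperone, read 576 and 736 on the Hemangioblast arrays, against 1417 and 1422 on the hCD4 arrays (change -1.11, adjusted p = 0.00945). Ppib, an ER cyclophilin that also acts on collagen, read 759.9 and 816 on the Hemangioblast arrays, against 1232 and 1287 on the hCD4 arrays (change -0.67, adjusted p = 0.0447). Fkbp11, a prolyl isomerase of secretory cells, read 112 and 58.3 on the Hemangioblast arrays, against 259.7 and 260.3 on the hCD4 arrays (change -1.50, adjusted p = 0.0390).

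In the other lists 0 passed. The 16 measured regulators of the unfolded protein response had a median change of 0.05, within a wide range from -0.90 to 1.45. For the 18 mitochondrial import and protease genes the median was -0.27 (range -0.60 to 0.14). For the 11 exchange factors and co-chaperones of Hsp70, which include Hspbp1, it was -0.06 (range -0.41 to 0.52). Of the heat shock factors, Hsf2 read 41.1 and 51.0 on the Hemangioblast arrays, against 30.7 and 11.7 on the hCD4 arrays (change 0.78, adjusted p = 0.384). Hsbp1, which binds heat shock factor 1, read 384 and 364 on the Hemangioblast arrays, against 242 and 221 on the hCD4 arrays, with no overlap (change 0.66, adjusted p = 0.131). Hsf4, a lens factor, overlapped between the groups, and Hsf1 itself was not analysed here.

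Array differences bear on these values. Over the 79 probe sets the median log2 difference of replicate 1 minus replicate 2 was 0.03 for Hemangioblast and -0.03 for hCD4. Over the 24 bright ones it was 0.13 for Hemangioblast and -0.09 for hCD4, and over the 7 Hsp110 probe sets 0.40 for Hemangioblast and -0.15 for hCD4. Leaving out Hemangioblast replicate 1 gave 5 chaperone probe sets past the threshold, all lower (Hspa1b, Hspe1, Hsph1 and 1 probe set each of Hspa4 and Cct3). Leaving out Hemangioblast replicate 2 gave 1, Hsph1, and leaving out either hCD4 array gave 0.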

How the data were processed

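The values are linear intensities, 1 for each probe set on each array, in the table the authors deposited; how they were made (software, background, scaling) is not given in the sources used, and 0 value columns were left out. After removal of 66 control probe sets, each array was brought to the average trimmed mean (2% off each end). Log2 of the scaled intensity plus 16 was fitted in limma 3.58.1 under R 4.3.3 (lmFit, eBayes with an intensity trend, 2 residual and 6.18 prior degrees of freedom), two-sided and without a block. P-values were adjusted over 12422 probe sets at a threshold of 0.05. No dim probe set was filtered out, and 95% intervals use the moderated errors. The small number of arrays limits the precision. Symbols came from the platform annotation, and all 79 matched the RefSeq table. The members, lists and markers were chosen with earlier results of these data known. Values are printed for all called members, the largest changes in each family, a fixed set of major chaperones, and up to 4 called genes of each list; the heat shock factors, Etv2 and other members were named after their values were seen. The alternatives are given with their effect at the end. Plots used matplotlib 3.10.9 and Python 3.11.15.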

Additional observations from a re-analysis of the deposited data

How the results depend on the processing

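Results were recomputed with 1 or 64 added before the logarithm, with other scaling (to the median, none, quantile), without an intensity trend, with dim probe sets (means up to 100 in both groups) dropped, with the replicate number as a block, without each array, by a 2-fold rule and with 1 probe set per gene. The median change of the 79 chaperone probe sets stayed below 0 (-0.26 to -0.13) in every refit, and that of the 24 bright ones, a limit chosen after seeing the data, ran from -0.46 to -0.29. The count of 2 chaperone probe sets past the threshold became 4 (of 66) with dim probe sets dropped, 1 with median scaling or quantile normalization, and 0 with no scaling, no intensity trend or the 2-fold rule. With 1 array left out it was 0 to 5. With the replicate block it was 4, Cct3 and Dnajc10 being added, but same-numbered arrays share only a number (correlation of their deviations -0.0078). The 556 probe sets past the threshold in all became 882 (of 8726) with dim ones dropped, 220 without a trend, 272 with no scaling, 359 by the 2-fold rule, 710 with the replicate block and 219 to 517 with 1 array left out; the cause was not tested.

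Hsph1 and Hspa1b kept their sign in every refit. Changes of chaperone probe sets that did not pass and turned sign were as follows. For Hspb8 only the probe set without a usable value (main change -0.0078) turned sign, and for Tcp1 only the dimmer one. With 1 added, Hspb8 had a change of 0.025. With no scaling, Dnajc8 had 0.017 and Hspb8 0.064. With median scaling, Dnajc4 had -0.034 and Tcp1 -0.066. With quantile normalization, Dnajb13 had -0.084, Dnajb8 -0.0032, Dnajc15 -0.024, Dnajc3 -0.023, Dnajc4 -0.17, Dnajc8 0.078, Hspb11 -0.00054 and Tcp1 -0.12. With 1 array left out, the changes that crossed 0 ranged over Cct2 (-0.11 to 0.50), Cct6b (-0.29 to 0.78), Dnajb1 (-0.076 to 0.36), Dnajb4 (-0.60 to 0.23), Dnajb6 (-0.29 to 0.066), Dnajb13 (-0.17 to 0.38 and -0.47 to 0.67), Dnajc3 (-0.17 to 0.32, -0.023 to 0.59 and -0.017 to 0.52), Dnajc4 (-0.22 to 0.30), Dnajc5 (-0.20 to 0.14), Dnajc8 (-0.12 to 0.10), Dnajc13 (-0.27 to 0.059), Dnajc15 (-0.11 to 0.30), Dnajc17 (-0.37 to 0.31), Hsp90aa1 (-0.87 to 0.15, dim probe set), Hspa1a (-0.38 to 0.050), Hspa1l (-0.23 to 0.40), Hspa2 (-0.036 to 0.72), Hspa14 (-0.26 to 0.44), Hspb8 (-0.87 to 0.86), Hspbp1 (-0.24 to 0.12) and Tcp1 (-0.090 to 0.11, dim probe set).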
